A study of Mus musculus with 336 samples.

Results

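Slices of wild-type (WT) mouse liver were compared between the last pair of harvests of a short culture time course, labelled T24 and T12. The comparison rests on 6 libraries, 3 WT libraries at T24 and 3 at T12, out of 24 libraries in this course and 336 sequencing samples in the whole series. The 24 libraries fall into 8 groups, Bmal1-/- (KO) and WT slices at each of T00, T06, T12 and T24, with 3 libraries a group, and each library has 2 sequencing runs that share 1 value. Every group, T00 and the WT slices included, came from mice of C57BL/6 background whose liver was cut into slices of about 500 micron, laid on membrane discs, exposed to 100 nM dexamethasone (a synthetic glucocorticoid used to bring cellular clocks into step) for 15 min, washed and kept in a HEPES-buffered medium. Bmal1, with the symbol Arntl in the files, makes the protein that joins CLOCK to drive the circadian oscillator. Sex, age, the unit of the time labels and the time from dexamethasone to T00 are not given for this course in the sources used here. Nor do the labels say that libraries came from separate animals, so p-values here reflect a spread that may be only technical. Genes were taken into the test by their level alone, a mean of at least 1 FPKM over the 24 libraries, and 12547 of 47631 genes in the table passed. FPKM is a level scaled to gene length and to the number of fragments mapped in the library.

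Hepatocytes, the main cell of the liver, break down amino acids, turn ammonia into urea, store glycogen and export bile acids. Cells handle oxidants and free heme partly through NRF2, a transcription factor that switches on genes for heme breakdown, glutathione synthesis and the pentose phosphate pathway, the source of the reducing agent NADPH. When oxygen is short, the hypoxia-inducible factors switch on genes for glycolysis, lactate export and blood vessel growth.

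The heme genes Hmox1 and Slc48a1 and the redox genes G6pdx, Taldo1, Gsr, Cbr3 and Slc7a11 were higher at T24 than at T12 whichever 1 of the 6 libraries was left out. In the same fits the amino acid enzyme gene Sds, the lactate dehydrogenase gene Ldha and the clock output gene Dbp were lower. In total 846 genes (6.74% of 12547) were called, which means an adjusted p below 0.05 in limma's moderated test on log2(FPKM + 1), fitted to all 24 libraries and adjusted by Benjamini and Hochberg over all genes tested. Of these 442 (3.52%) were higher at T24, with a median log2 change of 0.64, and 404 (3.22%) were lower at T24, with a median of -0.81. The median over all genes tested was -0.02, and 52.1% of them had a change below 0. Changes of at least 1 on the log2 scale were found in 66 of the genes called higher and 121 of those called lower. The 3 T24 values lay wholly outside the range of the 3 T12 values for 436 of the 442 and 397 of the 404, against 3920 (31.2%) of all genes tested.

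The number of calls rested on which libraries were in the fit. It was 217 without T24 replicate 3, 305 without T24 replicate 2, 558 without T24 replicate 1, 255 without T12 replicate 2, 441 without T12 replicate 3 and 677 without T12 replicate 1, and none was called by limma in a fit of the 6 libraries alone, where 3032 had an unadjusted p below 0.05. A set of 140 genes, 96 higher and 44 lower at T24 and 16.5% of the 846, was called in the fit of all libraries and in each of the 6 fits that left out 1 of these libraries. Hmox1, Slc48a1, Slc7a11, G6pdx, Taldo1, Gsr, Cbr3, Ampd3, Psg22, Ptpn14, Slc43a2, Stab2, Mmp14, Zmat3 and Plk2 were among the 96, and Ackr1, Dpys, Sardhos, Sds, Ldha, Ndufv2, Actb and Dbp among the 44. Every other gene called below lost its call in at least 1 of the 6 fits unless stated, and none of 106 called genes, all those named in the text but Snord15a, changed sign in any of them.

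**Figure D1:**
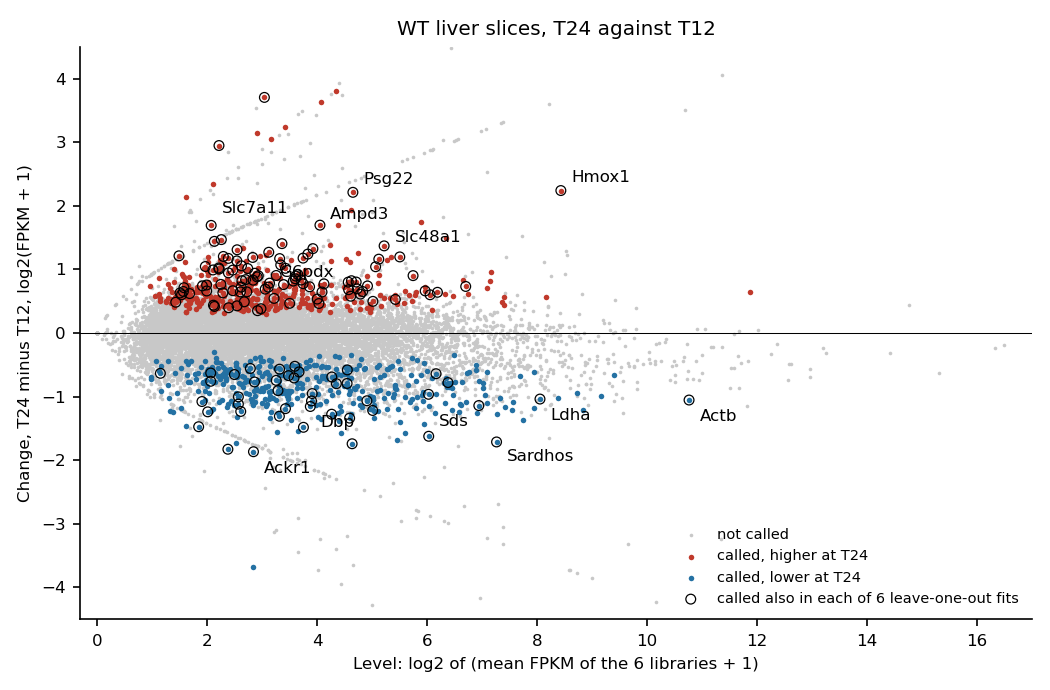
Change between T12 and T24 in WT slices, T24 minus T12 on the log2(FPKM + 1) scale, against the level as log2 of the mean FPKM of the 6 libraries plus 1. Each point is 1 of 12547 genes, red where called higher and blue where called lower, and circles mark the 140 genes called also in each of 6 leave-one-out fits; Hmox1 combines a high level with a change of 2.24, and 14 genes lie outside the axes.

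The 6 libraries correlated at 0.877 to 0.921 with each other on the log2 scale, and their read depth is unknown because FPKM carry no counts. Among 6816 genes whose median in them reached 5 FPKM, 103 were listed at exactly 0 in some library, among them the hepatocyte gene Alb, at 0 in replicate 3 of T24 and of T12. Hepatocyte markers were the most abundant of the cell type lists, with a summed level of 16200 to 27620 FPKM at T24, against 27230 to 43230 FPKM at T12, Alb included. All 16 hepatocyte markers had a change below 0, against 52.1% of all genes tested, with a median of -0.77 on the log2 scale. Of these 3 were called lower (Ass1, Pck1 and Apob), against 3.22% of all genes. In bulk tissue, fewer cells of a type and less RNA per cell cannot be told apart. Macrophage markers summed to 441.4 to 692.4 FPKM at T24 against 434.5 to 581 FPKM at T12, endothelial markers to 368.5 to 489.5 against 316.1 to 487.9 FPKM, and fibroblast markers to 549.6 to 830.7 against 529.9 to 888.1 FPKM, all with overlapping ranges. Lymphocyte markers summed to 3.521 to 4.796 FPKM at T24 against 8.086 to 25.91 FPKM at T12, without overlap, and neutrophil markers to 4.024 to 8.835 against 4.099 to 78.74 FPKM, with Ly6g and Ngp at 0 in all 3 T24 libraries. Mitochondrial transcripts were high in replicate 2 of both times: mt-Rnr1, a mitochondrial ribosomal RNA, had 8581, 34984 and 16476 FPKM at T24, against 12555, 38815 and 19321 FPKM at T12. All mitochondrial transcripts together made up 14.0, 33.5 and 4.92% of the summed FPKM at T24, against 15.5, 23.6 and 13.4% at T12. T24 replicate 3, with the lowest share, also had the lowest total of the WT libraries, 596805 FPKM. Its mt-Rnr1 value of 16476 FPKM was above the 8581 FPKM of T24 replicate 1, whose share was 14.0%. Genes listed at exactly 0 add nothing to these sums, and whether such zeros are failed estimates is not known. The part of these differences in the results below was not tested.

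Arntl itself overlapped between the genotypes. It had 1.71, 2.55 and 2.18 FPKM in KO slices against 2.34, 3.05 and 2.88 FPKM in WT slices at T24, and 1.51, 2.4 and 2.24 FPKM in KO slices against 2.15, 1.52 and 1.53 FPKM in WT slices at T12. Its gene-level value does not show which exons were read. Dbp, a transcription factor gene driven by CLOCK and BMAL1, stood at 0.405, 0.279 and 0.389 FPKM in KO slices at T24 and 0.796, 0.672 and 1.01 FPKM in KO slices at T12, below every WT library at either time.

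Hmox1, the heme oxygenase that opens the heme ring (ENSMUSG00000005413, chromosome 8, 75093621 to 75100589, plus strand in GENCODE M21 on GRCm38), had 441, 699.7 and 569.9 FPKM at T24, against 128, 139.7 and 90.9 FPKM at T12. Every T24 library lay far above the highest T12 library, and the change was 2.24 ± 0.26 (SE) on the log2 scale (adjusted p = 0.000168). Slc48a1, the gene of the heme transporter HRG1, which carries heme out of the endolysosome, had 49.2, 57.6 and 51.5 FPKM at T24, against 19.5, 18 and 21.9 FPKM at T12. Slc48a1 changed by 1.37 ± 0.10, with the smallest adjusted p of all genes tested (3.95e-07), and was named after its values were seen. The groups did not overlap for either gene, which was a condition for naming Hmox1 among the highest changes. The log2 change of Hmox1 ran from 2.06 to 2.41 and that of Slc48a1 from 1.31 to 1.44 over the 6 leave-one-out fits. Fth1, the heavy chain of the iron store ferritin, had 3796, 5565 and 4450.4 FPKM at T24, against 2482, 3447 and 2894 FPKM at T12. Fth1 changed by 0.64 ± 0.18 (adjusted p = 0.0402), and its call was lost without T12 replicate 1, 2 or 3 or T24 replicate 2 or 3. Fth1 has many processed pseudogenes that can share its reads. Heph, a ferroxidase for exported iron, had 1.72, 4.01 and 3.16 FPKM at T24, against 0.473, 0.747 and 0.76 FPKM at T12. Heph changed by 1.21 ± 0.24 (adjusted p = 0.00844, called in all 6 fits) and was also named after its values were seen. Bmp6, the signal from sinusoidal endothelium that sets hepcidin, had a change of 0.79 ± 0.23 (adjusted p = 0.046), lost in each of the 6 fits. Fth1 and Bmp6 were the 2 called of 19 tested metallothionein and iron genes, of which 14 had a change below 0 (median -0.17), with 3 higher and 4 lower at an unadjusted p below 0.05. The shares called among all genes were 3.52% higher and 3.22% lower.

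Of 27 tested members of the list of NRF2 targets and redox genes, 10 were called higher and none lower, against 3.52% higher among all genes, while the median change of the list was 0.03. The count of members called higher was 6 without T24 replicate 2 and 6 without T24 replicate 3, and between 7 and 10 without any other 1 of the 6 libraries. Apart from Hmox1 and Fth1, those called fall into the pentose phosphate pathway, glutathione supply and carbonyl or quinone reduction.

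G6pdx, glucose-6-phosphate dehydrogenase, the entry enzyme of the pentose phosphate pathway (ENSMUSG00000031400, chromosome X, 74409483 to 74429194, minus strand), had 9.16, 14.6 and 10.3 FPKM at T24, against 4.7, 3.48 and 4.002 FPKM at T12. Its change was 1.27 ± 0.15 (adjusted p = 0.000243), with no overlap between the groups. Taldo1, the transaldolase of the same pathway, had 117, 139 and 131 FPKM at T24, against 67.2, 79.3 and 85.8 FPKM at T12. Taldo1 changed by 0.73 ± 0.13 (adjusted p = 0.00454). Pgd, which carries out the second NADPH-yielding step, had 40.6, 44.4 and 43.1 FPKM at T24, against 27.7, 20.02 and 25.9 FPKM at T12. Pgd changed by 0.79 ± 0.18 (adjusted p = 0.0179), a call lost without T12 replicate 2 or T24 replicate 2 or 3. The groups did not overlap for any of these 3 enzyme genes.

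Glutathione genes moved in part. Slc7a11, the cystine importer that feeds glutathione synthesis, had 2.93, 10.6 and 3.33 FPKM at T24, against 0.967, 0.784 and 0.665 FPKM at T12, with T24 replicate 2 far above the other T24 libraries, and changed by 1.69 ± 0.34 (adjusted p = 0.00925). Its partner chain Slc3a2 had 141, 251 and 179.96 FPKM at T24, against 105, 94.7 and 85.4 FPKM at T12. Slc3a2 changed by 0.96 ± 0.28 (adjusted p = 0.047). Gsr, glutathione reductase, had 71.6, 55.4 and 79.8 FPKM at T24, against 44.6, 35 and 29.8 FPKM at T12. Gsr changed by 0.90 ± 0.16 (adjusted p = 0.00425). Gclm, the modifier subunit of the rate-limiting ligase, had 159.5, 196 and 183 FPKM at T24, against 97, 125 and 85.6 FPKM at T12. Gclm changed by 0.81 ± 0.19 (adjusted p = 0.0199). The catalytic subunit gene Gclc had overlapping groups, with 57.3, 77.6 and 75.9 FPKM at T24, against 75.8, 67.9 and 63.5 FPKM at T12. The change of Gclc was 0.02 ± 0.25 (adjusted p = 0.995). Gclm lost its call without T12 replicate 3 or T24 replicate 2 or 3, and Slc3a2 without T12 replicate 1, 2 or 3 or T24 replicate 2 or 3.

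The reductases Cbr3, which acts on carbonyls, and Nqo1, which acts on quinones, were low at T12. Cbr3 had 4.35, 8.37 and 5.49 FPKM at T24, against 1.4, 1.05 and 2.11 FPKM at T12. Cbr3 changed by 1.47 ± 0.24 (adjusted p = 0.00292). Nqo1 had 5.88, 11.5 and 6.7 FPKM at T24, against 2.28, 3.43 and 3.39 FPKM at T12. Nqo1 changed by 1.13 ± 0.28 (adjusted p = 0.0248), not called without T12 replicate 1 or 2 or T24 replicate 2 or 3. Neither gene had overlapping groups, which was a condition for naming Cbr3 among the highest changes. Srxn1, the sulfiredoxin that repairs peroxiredoxins, was already high at T12 and had 246, 266 and 261 FPKM at T24, against 266, 274 and 323 FPKM at T12. The change of Srxn1 was -0.15 ± 0.29 (adjusted p = 0.797). Txnrd1, thioredoxin reductase, had 68.9, 74.1 and 72.7 FPKM at T24, against 52.4, 51.4 and 55.7 FPKM at T12. The change of Txnrd1 was 0.43 ± 0.16 (adjusted p = 0.107). Nfe2l2, the gene of NRF2 itself, had 49.9, 60.1 and 58.4 FPKM at T24, against 44.3, 51.9 and 44.7 FPKM at T12. The change of Nfe2l2 was 0.25 ± 0.16 (adjusted p = 0.331). These 3 missed the threshold.

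Promoters of the called NRF2 list members were searched for the core letters of the antioxidant response element, TGACNNNGC, on both strands of the 250 bases before the RefSeq start. The letters stood in 2 of 8 called members with a promoter entry (25.0%), in 6 of 23 listed members (26.1%) and in 11.5% of all 27025 genes with an entry. The 150 bases before the start are shown for both called members that hold the match, from RefSeq on GRCm38.p6 (whose start can lie inside the GENCODE gene span) with the match in capitals (the reverse complement in each), at chrX:74428881-74429030, minus strand, for G6pdx and at chr3:122245407-122245556, plus strand, for Gclm.
G6pdx: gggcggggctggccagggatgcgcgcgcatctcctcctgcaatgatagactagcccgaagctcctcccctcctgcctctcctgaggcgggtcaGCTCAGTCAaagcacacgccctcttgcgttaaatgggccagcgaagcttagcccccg
Gclm: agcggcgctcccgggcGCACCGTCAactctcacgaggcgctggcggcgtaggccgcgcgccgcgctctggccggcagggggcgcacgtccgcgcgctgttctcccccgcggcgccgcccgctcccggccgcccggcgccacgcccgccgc
The match began 57 bases before the start of G6pdx and 134 bases before that of Gclm. A match of letters is a description and not a bound site.

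**Figure D2:**
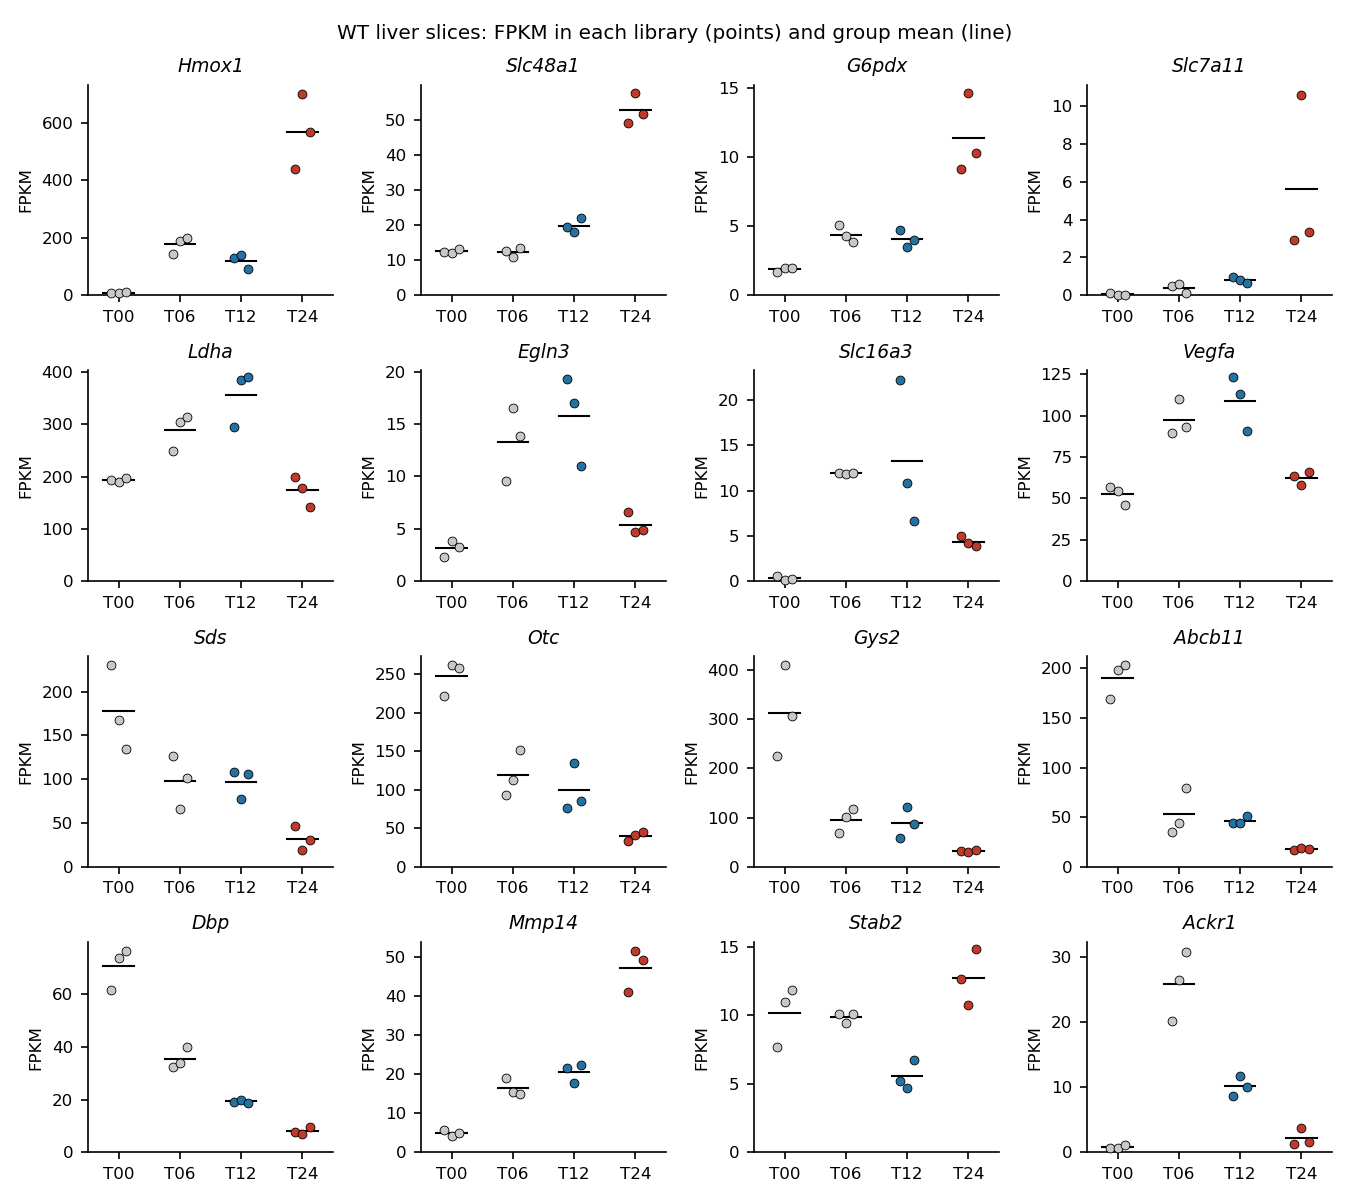
FPKM of 16 genes in each WT library (points) and the group mean (line) at T00, T06, T12 and T24, with T24 in red and T12 in blue. The first row shows heme and redox genes that were higher at T24 than at T12, the second row glycolysis and hypoxia genes and the third row hepatocyte genes that were lower at T24, and the fourth row Dbp and Ackr1, which were lower, and Mmp14 and Stab2, which were higher.

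Genes of glycolysis and the hypoxia response moved the other way. Of 23 tested members 6 were called lower and none higher, against 3.22% lower among all genes, and the median change of the list was -0.41. Ldha, the lactate dehydrogenase subunit that makes lactate from pyruvate (ENSMUSG00000063229, chromosome 7, 46841475 to 46855627, plus strand), had 199, 178 and 142 FPKM at T24, against 294, 384 and 391 FPKM at T12, with no overlap. Its change of -1.04 ± 0.19 (adjusted p = 0.00458) held in all 6 leave-one-out fits, and at T00 it had 194, 189 and 197 FPKM. Slc16a3, the lactate exporter MCT4, had 4.996, 4.21 and 3.86 FPKM at T24, against 22.2, 10.8 and 6.64 FPKM at T12. Slc16a3 changed by -1.26 ± 0.34 (adjusted p = 0.0371) and had been at 0.528, 0.11 and 0.187 FPKM at T00. Egln3, a prolyl hydroxylase that marks hypoxia-inducible factors for breakdown and is itself induced by them, had 6.54, 4.72 and 4.84 FPKM at T24, against 19.3, 17 and 10.9 FPKM at T12. Egln3 changed by -1.37 ± 0.32 (adjusted p = 0.018). Vegfa, the main growth factor of blood vessels, had 63.4, 57.8 and 65.7 FPKM at T24, against 124, 113 and 90.7 FPKM at T12. Vegfa changed by -0.79 ± 0.18 (adjusted p = 0.0179). At T24 both genes lay nearer to their T00 values than to those at T12, with 2.29, 3.84 and 3.23 FPKM of Egln3 and 57.1, 54.5 and 46.1 FPKM of Vegfa at T00. Bnip3, a mitophagy receptor, and Pfkl, the liver phosphofructokinase, changed by -1.20 ± 0.32 (adjusted p = 0.0335) and -0.94 ± 0.28 (adjusted p = 0.049). Slc2a1, the glucose transporter GLUT1, had 22, 23.4 and 21.2 FPKM at T24, against 56.2, 25.3 and 18.4 FPKM at T12, with overlapping groups and a change of -0.41 ± 0.38 (adjusted p = 0.546). The count of members called lower was 1 without T12 replicate 1, T12 replicate 2, T24 replicate 2 or T24 replicate 3, 5 without T12 replicate 3 and 4 without T24 replicate 1.

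The core letters of the hypoxia response element, ACGTG, were searched in the same way, and the palindrome CACGTG counts as overlapping matches, 1 on each strand. They stood in 5 of 6 called members (83.3%), in 16 of 23 listed members (69.6%) and in 18.5% of all genes with an entry, and these shares were not tested. Shown are the 150 bases before the start of Ldha at chr7:46845654-46845803, plus strand, of Bnip3 at chr7:138909507-138909656, minus strand, and of Slc16a3 at chr11:120948917-120949066, plus strand, with matches in capitals.
Ldha: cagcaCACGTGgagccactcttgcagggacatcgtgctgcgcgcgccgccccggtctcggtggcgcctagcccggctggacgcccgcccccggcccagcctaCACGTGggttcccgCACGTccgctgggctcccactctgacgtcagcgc
Bnip3: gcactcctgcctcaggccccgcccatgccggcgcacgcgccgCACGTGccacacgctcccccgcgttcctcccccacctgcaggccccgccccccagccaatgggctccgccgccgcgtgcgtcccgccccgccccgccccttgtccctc
Slc16a3: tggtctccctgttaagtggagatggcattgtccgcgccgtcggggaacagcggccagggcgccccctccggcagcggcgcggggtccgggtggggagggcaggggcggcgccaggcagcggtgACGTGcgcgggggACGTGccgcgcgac
Ldha held 5 matches on the strands together, Bnip3 2 that overlap and Slc16a3 2 that stand apart. Here too a match of letters is a description, and it does not show which factor binds there, if any.

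Genes of hepatocyte metabolism were lower at T24 in several lists, beside hepatocyte markers whose median change was -0.77; the part of hepatocyte content in these lists and in the hepatocyte lists that follow was not tested. All 25 tested members of the list of the urea cycle and amino acid breakdown had a change below 0, against 52.1% of all genes, with a median of -0.99 and 9 called lower. Among all genes 3.22% were called lower and 3.52% higher, which are the shares to set beside the counts of the hepatocyte lists. Sds, serine dehydratase, a periportal enzyme that turns serine into pyruvate (ENSMUSG00000029597, chromosome 5, 120476526 to 120483932, plus strand), had 46.3, 19.5 and 30.7 FPKM at T24, against 108, 76.9 and 105 FPKM at T12. Its groups did not overlap, a condition for naming it among the lowest changes. The change of -1.62 ± 0.31 (adjusted p = 0.00677) held in all 6 leave-one-out fits. Otc, which forms citrulline in the urea cycle, had 33, 41.3 and 45.5 FPKM at T24, against 76.6, 135 and 85.6 FPKM at T12. Otc changed by -1.26 ± 0.27 (adjusted p = 0.0123, lost only without T12 replicate 2). Slc25a15, the mitochondrial ornithine carrier, had 12.1, 6.05 and 12.2 FPKM at T24, against 35.4, 31.9 and 26.1 FPKM at T12. Slc25a15 changed by -1.58 ± 0.37 (adjusted p = 0.0185, lost without T12 replicate 2 or T24 replicate 2). Ass1, argininosuccinate synthetase, had 54.2, 62 and 64.9 FPKM at T24, against 126, 131 and 142 FPKM at T12. Ass1 changed by -1.13 ± 0.31 (adjusted p = 0.0371). Cps1, the first enzyme of the cycle, had 80.9, 83.3 and 104 FPKM at T24, against 158, 206 and 158 FPKM at T12. Its groups did not overlap, but its change of -0.95 ± 0.48 was not called (adjusted p = 0.223). Hpd and Fah, of tyrosine breakdown, changed by -1.21 ± 0.35 (adjusted p = 0.0439) and -1.25 ± 0.35 (adjusted p = 0.0419). Other called members included Agxt, a glyoxylate-detoxifying transaminase (-1.01 ± 0.29, adjusted p = 0.0458), and Uroc1, of histidine breakdown (-1.23 ± 0.36, adjusted p = 0.0459). The count of members called lower was 5 without T12 replicate 1, 1 without T12 replicate 2, 4 without T12 replicate 3, 4 without T24 replicate 1, 2 without T24 replicate 2 and 3 without T24 replicate 3.

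Further genes of amino acid, pyrimidine and one-carbon metabolism were lower too. Dpys, dihydropyrimidinase of pyrimidine breakdown, had 8.48, 9.87 and 12.9 FPKM at T24, against 33.7, 47.8 and 30.7 FPKM at T12. Dpys changed by -1.74 ± 0.33 (adjusted p = 0.00671) and kept its call in all 6 fits. Bhmt, which remakes methionine from betaine, had 27, 19.7 and 22.6 FPKM at T24, against 84, 78.2 and 52.2 FPKM at T12. Bhmt changed by -1.57 ± 0.36 (adjusted p = 0.0172, lost without T12 replicate 2 or T24 replicate 2 or 3). Sardhos, an antisense RNA at the sarcosine dehydrogenase locus, had 81.9, 60.5 and 71.3 FPKM at T24, against 220.3, 235 and 248 FPKM at T12. Sardhos changed by -1.71 ± 0.34 (adjusted p = 0.00925); the libraries were made with a stranded kit, but whether the counting used strand is not given in the sources used here, so reads of the gene opposite cannot be told apart. Of 18 tested methionine and one-carbon genes 3 were called lower, Bhmt, Shmt1 (-1.06 ± 0.31, adjusted p = 0.0458) and Mat2a (-0.86 ± 0.24, adjusted p = 0.0438). Mat2a, the extrahepatic methionine adenosyltransferase, had 47.6, 59 and 61.1 FPKM at T24, against 67.6, 111 and 139 FPKM at T12 and 48, 44 and 40.02 FPKM at T00, so that it had been higher at T12 than at T00. Bckdhb, a subunit of the branched-chain ketoacid dehydrogenase, and Etfb, an electron carrier of amino acid and fatty acid oxidation, were called in all 6 fits with changes of -1.07 ± 0.21 (adjusted p = 0.00925) and -1.14 ± 0.18 (adjusted p = 0.00175), and were named after their values were seen.

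Gys2, liver glycogen synthase, had 31.1, 29.5 and 33 FPKM at T24, against 58.8, 122 and 87.7 FPKM at T12. Gys2 changed by -1.43 ± 0.34 (adjusted p = 0.02). Ppp1r3c and Ppp1r3b encode subunits that bring protein phosphatase 1 to glycogen. Ppp1r3c had 2.05, 0.72 and 1.93 FPKM at T24, against 7.04, 12.9 and 4.03 FPKM at T12. Ppp1r3c changed by -1.73 ± 0.45 (adjusted p = 0.031). Ppp1r3b had 4.97, 2.65 and 4.29 FPKM at T24, against 14.9, 14.7 and 10.7 FPKM at T12. Ppp1r3b changed by -1.56 ± 0.37 (adjusted p = 0.0204). Groups without overlap were a condition for naming these 3 genes among the lowest changes. Each of them lost its call without T12 replicate 2 or T24 replicate 2 or 3 and without 1 further library. Pck1, the enzyme that commits carbon to gluconeogenesis, had 96.9, 57.8 and 116 FPKM at T24, against 265, 223 and 159.7 FPKM at T12. Pck1 changed by -1.27 ± 0.35 (adjusted p = 0.0374). Fbp1, fructose-1,6-bisphosphatase, had 143, 158 and 150.3 FPKM at T24, against 305, 379 and 341 FPKM at T12. Fbp1 changed by -1.18 ± 0.33 (adjusted p = 0.0414). Of the 16 tested members of the list of gluconeogenesis and glucose handling all had a change below 0, with a median of -0.82, and 3 were called (Gys2, Pck1 and Fbp1), between 0 and 1 of them in any leave-one-out fit.

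Of 19 tested bile acid genes 3 were called lower, and of 16 tested lipogenesis genes none was called by limma, with 2 lower at an unadjusted p below 0.05. Of the lipogenesis genes 15 had a change below 0, with a median of -0.67. Abcb11, the bile salt export pump, had 17.3, 18.3 and 17.5 FPKM at T24, against 43.6, 44 and 51.4 FPKM at T12. Abcb11 changed by -1.34 ± 0.30 (adjusted p = 0.017, lost without T12 replicate 2 or 3 or T24 replicate 3). Amacr and Baat, of bile acid side-chain processing and conjugation, had changes of -1.12 ± 0.28 (adjusted p = 0.0256) and -0.94 ± 0.27 (adjusted p = 0.0453), and they made up, with Abcb11, the 3 called members of the bile acid list (median -0.95; 0 to 2 called in the leave-one-out fits). In fatty acid oxidation 5 of 24 tested members were called lower and none higher, with a median of -0.78. Acadvl, the very-long-chain acyl-CoA dehydrogenase, had 34.8, 27.7 and 38.5 FPKM at T24, against 57.3, 73.1 and 80.4 FPKM at T12. Acadvl changed by -1.04 ± 0.24 (adjusted p = 0.0179), and Cpt2, Hadha and Hadhb had changes of -0.90 ± 0.22, -0.93 ± 0.26 and -0.77 ± 0.22 (adjusted p = 0.0261, 0.039 and 0.0408). The fifth, Bdh1, which makes the ketone body hydroxybutyrate, had 10.8, 8.76 and 12.3 FPKM at T24, against 24.3, 37 and 26.9 FPKM at T12. Bdh1 changed by -1.38 ± 0.39 (adjusted p = 0.0415). The count of oxidation genes called lower was 3 without T12 replicate 1, 2 without T24 replicate 1 and 0 or 1 without any of the other 4 libraries. Pcyt2, of phosphatidylethanolamine synthesis, had 25.3, 18.3 and 28 FPKM at T24, against 85.9, 54.9 and 54 FPKM at T12. Pcyt2 changed by -1.39 ± 0.38 (adjusted p = 0.0374). Apob, the structural protein of very-low-density lipoprotein, had 63.1, 148 and 117 FPKM at T24, against 199, 243 and 188 FPKM at T12. Apob changed by -1.01 ± 0.30 (adjusted p = 0.0493), the single called member of 15 apolipoprotein genes.

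All 28 tested nuclear genes of oxidative phosphorylation had a change below 0, with a median of -0.45, and 5 were called. Ndufv2, a subunit of complex I, had 52.5, 59.3 and 52.9 FPKM at T24, against 78, 102 and 79.99 FPKM at T12. Ndufv2 changed by -0.64 ± 0.12 (adjusted p = 0.00568) and was called in all 6 leave-one-out fits. The others were Ndufs1 (-0.66 ± 0.17, adjusted p = 0.027) and the ATP synthase genes Atp5b, Atp5o and Atp5a1, with changes of -0.66 ± 0.16, -0.75 ± 0.19 and -0.62 ± 0.17 (adjusted p = 0.0247, 0.0276 and 0.0352). The count was 5 without T12 replicate 1, 3 without T24 replicate 2 and 1 without any of the other 4 libraries.

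Among 22 transcription factors of hepatocytes 3 were called lower and 1 higher, with a median change of -0.50. Cebpa, a driver of hepatocyte maturation, had 27.6, 20.3 and 23.6 FPKM at T24, against 48.9, 50 and 36.5 FPKM at T12. Cebpa changed by -0.89 ± 0.21 (adjusted p = 0.0179). Nr1h3, the oxysterol receptor LXR alpha, had 6.93, 5.31 and 6.38 FPKM at T24, against 13.5, 17.4 and 11.2 FPKM at T12. Nr1h3 changed by -1.05 ± 0.27 (adjusted p = 0.0296), and Nr1i2, the xenobiotic receptor PXR, changed by -0.91 ± 0.26 (adjusted p = 0.0438). Hnf4a, the central factor of hepatocyte identity, had 32.7, 13.9 and 21.9 FPKM at T24, against 54.1, 39.9 and 36.6 FPKM at T12. Its groups did not overlap, and it was not called (change -0.96 ± 0.37, adjusted p = 0.118). Gata4, which is expressed in sinusoidal endothelium and stellate cells of adult liver as well as in hepatocytes, was higher, with 7.24, 9.06 and 8.12 FPKM at T24, against 3.87, 4.65 and 6.16 FPKM at T12. Gata4 changed by 0.65 ± 0.17 (adjusted p = 0.0363). Without T12 replicate 2, T24 replicate 2 or T24 replicate 3 none of the 3 lower members was called. No cytochrome P450 gene of 23 tested was called by limma, although 21 had a change below 0, 7 of them at an unadjusted p below 0.05, and the median was -0.82.

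**Figure D3:**
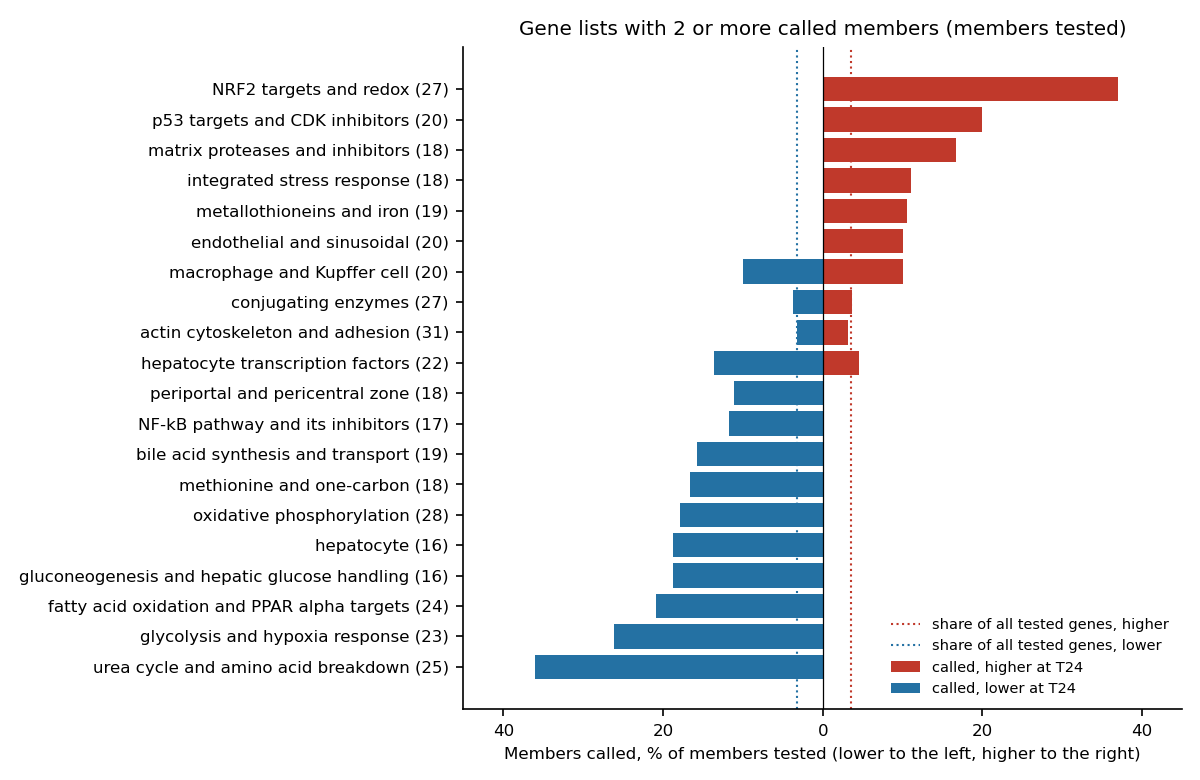
Members called in WT slices at T24 against T12, as a percentage of the members tested (in brackets), for the gene lists with 2 or more called members; bars to the right are higher and bars to the left lower at T24. Dotted lines mark the shares of all genes tested, 3.52% higher and 3.22% lower; NRF2 and redox genes stand at the top and the urea cycle and amino acid breakdown at the bottom.

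Of 20 tested endothelial and sinusoidal genes 2 were called higher and none lower, against 3.52% higher and 3.22% lower among all genes. Stab2, the hyaluronan scavenger receptor of sinusoidal endothelium, had 12.6, 10.7 and 14.8 FPKM at T24, against 5.19, 4.69 and 6.74 FPKM at T12. The groups did not overlap, and Stab2 changed by 1.07 ± 0.18 (adjusted p = 0.00399). Cdh5, the cadherin of endothelial junctions, had 50.8, 57.7 and 74.5 FPKM at T24, against 39, 38 and 41.2 FPKM at T12. Cdh5 changed by 0.60 ± 0.15 (adjusted p = 0.0269, called only without T24 replicate 1 among the 6 fits). These were the 2 called members of the list, whose median change was 0.19 and whose summed level overlapped between the groups. At an unadjusted p below 0.05 by limma 6 of its members were higher and 4 lower. In all, 8 of the 20 had a change below 0, and the changes ran from -1.21 to 1.07. Cd93 and Calcrl, an endothelial lectin-like receptor and the receptor chain for adrenomedullin, changed by 1.20 ± 0.18 (adjusted p = 0.00163) and 1.33 ± 0.24 (adjusted p = 0.00513), as did Nrp2, a co-receptor for VEGF and semaphorins (1.13 ± 0.18, adjusted p = 0.00292). Ackr1, the chemokine-binding receptor of venular endothelium and red cells, had 1.27, 3.83 and 1.56 FPKM at T24, against 8.73, 11.7 and 9.99 FPKM at T12. Ackr1 changed by -1.87 ± 0.26 (adjusted p = 0.000919) and had been at 20.1, 26.4 and 30.9 FPKM at T06. Aqp1, a water channel, and Gja4, a connexin of arterial endothelium, changed by -1.28 ± 0.25 (adjusted p = 0.00757) and -1.31 ± 0.24 (adjusted p = 0.00568). Cd93, Calcrl, Nrp2, Aqp1 and Gja4 kept their calls in all 6 fits and were named after their values were seen. Esm1, an endothelial proteoglycan, had 39.3, 21.1 and 30.7 FPKM at T24, against 16.5, 5.11 and 6.81 FPKM at T12. Esm1 changed by 1.69 ± 0.43 (adjusted p = 0.0289). Ednrb, the endothelin B receptor, had 16.2, 34.2 and 29.1 FPKM at T24, against 9.25, 8.96 and 9.07 FPKM at T12. Ednrb changed by 1.38 ± 0.31 (adjusted p = 0.0156).

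Of 18 tested matrix proteases and inhibitors 3 were called higher and none lower, against 3.52% higher and 3.22% lower among all genes. The median change of the list was 0.29, and 5 members had a change below 0. At an unadjusted p below 0.05 by limma 4 members were higher and 3 lower. Mmp14, a membrane-bound collagenase, had 40.9, 51.5 and 49.2 FPKM at T24, against 21.6, 17.7 and 22.3 FPKM at T12, with no overlap (change 1.16 ± 0.19, adjusted p = 0.00327). Adamts1, which cleaves proteoglycans, had 21.7, 32.5 and 30.6 FPKM at T24, against 17.3, 15.7 and 16 FPKM at T12. Adamts1 changed by 0.73 ± 0.20 (adjusted p = 0.035). Mmp8, the neutrophil collagenase, had 6.26, 4.28 and 3.09 FPKM at T24, against 2.81, 1.54 and 0.339 FPKM at T12. Mmp8 changed by 1.20 ± 0.33 (adjusted p = 0.0389) while the summed neutrophil markers were at or under 8.835 FPKM at T24. Between 1 and 2 of the 3 were called in each leave-one-out fit, 1 of them without T12 replicate 2 or 3 or T24 replicate 2 or 3.

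Of 20 tested macrophage and Kupffer cell genes 2 were called higher and 2 lower, and their summed level overlapped between the groups. Among all genes 3.52% were called higher and 3.22% lower. Cd163, the scavenger receptor that takes up hemoglobin bound to haptoglobin, had 17.8, 15.6 and 18.5 FPKM at T24, against 10.3, 9.76 and 5.77 FPKM at T12. Cd163 changed by 0.96 ± 0.20 (adjusted p = 0.0115, lost only without T24 replicate 3). Spic, a transcription factor of iron-recycling macrophages, had 4.91, 3.84 and 4.67 FPKM at T24, against 1.05, 2.77 and 1.04 FPKM at T12. Spic changed by 1.12 ± 0.28 (adjusted p = 0.0251). Timd4, a phagocytic receptor of resident Kupffer cells, had 0.693, 0.543 and 0.514 FPKM at T24, against 1.61, 3.74 and 1.71 FPKM at T12. Timd4 changed by -1.03 ± 0.29 (adjusted p = 0.0435). Lyz2, lysozyme, had 15.2, 16.1 and 19.3 FPKM at T24, against 28.7, 39.7 and 27.5 FPKM at T12. Lyz2 changed by -0.87 ± 0.24 (adjusted p = 0.0417). The remaining 16 members were not called, and the calls of Spic, Timd4 and Lyz2 held in at most 1 leave-one-out fit. Of the chemokines 1 of 15 was called, Ccl3, a monocyte attractant, with 22.1, 59.8 and 33.1 FPKM at T24, against 10.9, 9.3 and 6.11 FPKM at T12. Ccl3 changed by 1.93 ± 0.55 (adjusted p = 0.0451). Pf4, a chemokine of platelets that macrophages also make, had 68.4, 209 and 85 FPKM at T24, against 54.1, 26 and 36.9 FPKM at T12, with T24 replicate 2 far above the rest (change 1.49 ± 0.43, adjusted p = 0.0444; 1.01 without that library).

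Stress and growth-arrest genes gave a small group. Of 20 tested p53 targets and CDK inhibitors 4 were called higher and none lower, against 3.52% higher among all genes, with a median of 0.16. Zmat3, an RNA-binding target of p53, had 5.94, 4.81 and 4.97 FPKM at T24, against 2.04, 2.14 and 2.11 FPKM at T12. Zmat3 changed by 1.01 ± 0.13 (adjusted p = 0.00066). Plk2, a stress-induced kinase, had 37.6, 45.6 and 49.4 FPKM at T24, against 19.6, 22.1 and 20.8 FPKM at T12. Plk2 changed by 1.04 ± 0.17 (adjusted p = 0.003). Eda2r, a receptor of the TNF family, and Cdkn2b, the inhibitor p15, were low and changed by 1.02 ± 0.21 (adjusted p = 0.0104, lost without T24 replicate 3) and 0.87 ± 0.21 (adjusted p = 0.0223, lost without T12 replicate 2 or T24 replicate 3). Cdkn1a, the p53 target p21, had overlapping groups, 117, 124 and 127 FPKM at T24, against 109, 106 and 129.8 FPKM at T12. The change of Cdkn1a was 0.10 ± 0.19 (adjusted p = 0.811), and its levels at both times were far above the 1.71, 1.47 and 2.27 FPKM at T00. The count of called members was 2 without T24 replicate 3, 3 without T12 replicate 2 and 4 in the other 4 fits.

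Clock genes gave a single call between these times, where 6.74% of all genes were called. Of 20 tested clock genes 1 was called, Dbp (ENSMUSG00000059824, chromosome 7, 45705088 to 45710203, plus strand), with 7.88, 7.13 and 9.44 FPKM at T24, against 19.1, 19.9 and 18.8 FPKM at T12, a change of -1.16 ± 0.11 (adjusted p = 1.46e-05) and the second smallest adjusted p of all genes tested, after Slc48a1. Its groups did not overlap, its change ran from -1.26 to -1.07 over the leave-one-out fits, and it had 61.5, 73.4 and 76.3 FPKM at T00 and 32.3, 33.7 and 39.8 FPKM at T06. Nr1d1, which encodes the repressor REV-ERB alpha, had 38.8, 43.2 and 38.3 FPKM at T24, against 36.9, 46.7 and 32.8 FPKM at T12. The change of Nr1d1 was 0.06 ± 0.18 (adjusted p = 0.889). Per1 had 26.1, 26.9 and 35.9 FPKM at T24, against 21.8, 26.7 and 19.7 FPKM at T12. The change of Per1 was 0.36 ± 0.14 (adjusted p = 0.118). Per2 had 1.48, 1.23 and 1.45 FPKM at T24, against 2.29, 2.52 and 6.96 FPKM at T12. The change of Per2 was -0.92 ± 0.39 (adjusted p = 0.146). Clock had 5.33, 6.23 and 6.36 FPKM at T24, against 4.19, 5.59 and 4.24 FPKM at T12. The change of Clock was 0.30 ± 0.14 (adjusted p = 0.178), with overlapping groups for Nr1d1, Per1 and Clock. Arntl had 2.34, 3.05 and 2.88 FPKM at T24, against 2.15, 1.52 and 1.53 FPKM at T12. The change of Arntl was 0.46 ± 0.16 (adjusted p = 0.0829), and that of Usp2, an output gene, was -0.82 ± 0.29 (adjusted p = 0.0875). Harvests at 2 times cannot show a rhythm. Of 18 tested glucocorticoid response genes 1 was called, Pck1, and of 16 immediate early genes none was called by limma, with 4 at an unadjusted p below 0.05, all 4 lower.

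Other single genes stood at the ends of the ranking. Psg22, of the pregnancy-specific glycoprotein family, whose near-identical members can share reads, had 46.2, 25.3 and 50.2 FPKM at T24, against 9.82, 6.03 and 7.37 FPKM at T12. Psg22 changed by 2.21 ± 0.32 (adjusted p = 0.00117). Ampd3, an AMP deaminase abundant in red cells, had 15.1, 34.4 and 24.4 FPKM at T24, against 5.1, 6.64 and 8.09 FPKM at T12. Ampd3 changed by 1.70 ± 0.23 (adjusted p = 0.000722). Slc43a2, a neutral amino acid transporter, had 14.9, 13.2 and 13.4 FPKM at T24, against 4.4, 6.37 and 3.4 FPKM at T12. Slc43a2 changed by 1.41 ± 0.17 (adjusted p = 0.000243). Ptpn14, a phosphatase that restrains YAP, had 6.84, 4.8 and 4.64 FPKM at T24, against 1.76, 1.24 and 1.06 FPKM at T12. Ptpn14 changed by 1.44 ± 0.29 (adjusted p = 0.00925). Actb, cytoplasmic actin, often taken as a constant, had 1002, 1232 and 1159.7 FPKM at T24, against 2494, 2128 and 2416 FPKM at T12. Actb changed by -1.05 ± 0.21 (adjusted p = 0.0101) and had been at 953, 1084 and 897 FPKM at T00; processed pseudogenes can share its reads, as for Ldha. Bud23, a ribosomal RNA methyltransferase, had 20.4, 12.5 and 26.5 FPKM at T24, against 50.2, 93.3 and 54.2 FPKM at T12. Bud23 changed by -1.69 ± 0.44 (adjusted p = 0.032). Snord15a, a small nucleolar RNA inside a host gene, was listed at 0 in all 3 T12 libraries and had 4.74, 12 and 5.18 FPKM at T24, and such short RNAs are measured poorly after poly(A) selection.

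One KO library stood apart. KO T24 replicate 2 had a median correlation of 0.777 with the other libraries on the log2 scale, against 0.815 to 0.892 for the other 23, and the lowest total, 479770 FPKM. Its hepatocyte markers summed to 9206 FPKM, against 19110 and 19820 FPKM in KO T24 replicates 1 and 3.

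Most genes called in WT slices were called the same way in KO slices, which share no library with them. Both sets of calls used the same spread per gene, estimated from all 24 libraries, so they are not independent tests. In KO slices 4020 genes (32.0%) were called, 1631 higher (13.0%) and 2389 lower (19.0%) at T24, and 2436, 2421 and 2238 without KO T12 replicate 1, KO T12 replicate 3 or KO T24 replicate 2. Of the 846 genes called in WT slices 557 were called in the same direction in KO slices, 65.8% of the WT calls and 13.9% of the KO calls, and 9 were called in the other direction. Without KO T24 replicate 2 these were 459 genes, 54.3% of the WT calls and 20.5% of the KO calls, and 7. Hmox1 had 1337, 1562 and 1378 FPKM in KO slices at T24 against 109, 217 and 115 FPKM at T12, a change of 3.34 ± 0.26 beside 2.24 ± 0.26 in WT slices, and the test of the difference did not pass (WT minus KO -1.10 ± 0.36, adjusted p = 0.193). Ldha changed by -1.16 ± 0.19 in KO slices and Sds by -2.48 ± 0.31, with differences of 0.12 ± 0.27 and 0.85 ± 0.44 (adjusted p = 0.859 and 0.405). In KO slices 13 NRF2 and redox genes were called higher and 6 lower, 23 of 25 urea cycle and amino acid genes lower, 24 of 28 oxidative phosphorylation genes lower and 10 of 23 glycolysis and hypoxia genes lower with 1 higher. Without KO T24 replicate 2, against 17.8% of all genes called, these became 12 higher and 3 lower NRF2 and redox genes, 18 urea cycle and amino acid genes, 11 oxidative phosphorylation genes and 5 lower glycolysis and hypoxia genes with 1 higher. In the integrated stress response list 11 of 18 genes were called higher in KO slices (median 1.05) and 2 in WT slices (Slc7a11 and Slc3a2, median 0.33), and no member differed in the test of the difference. Without KO T24 replicate 2 the KO count was 9.

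**Figure D4:**
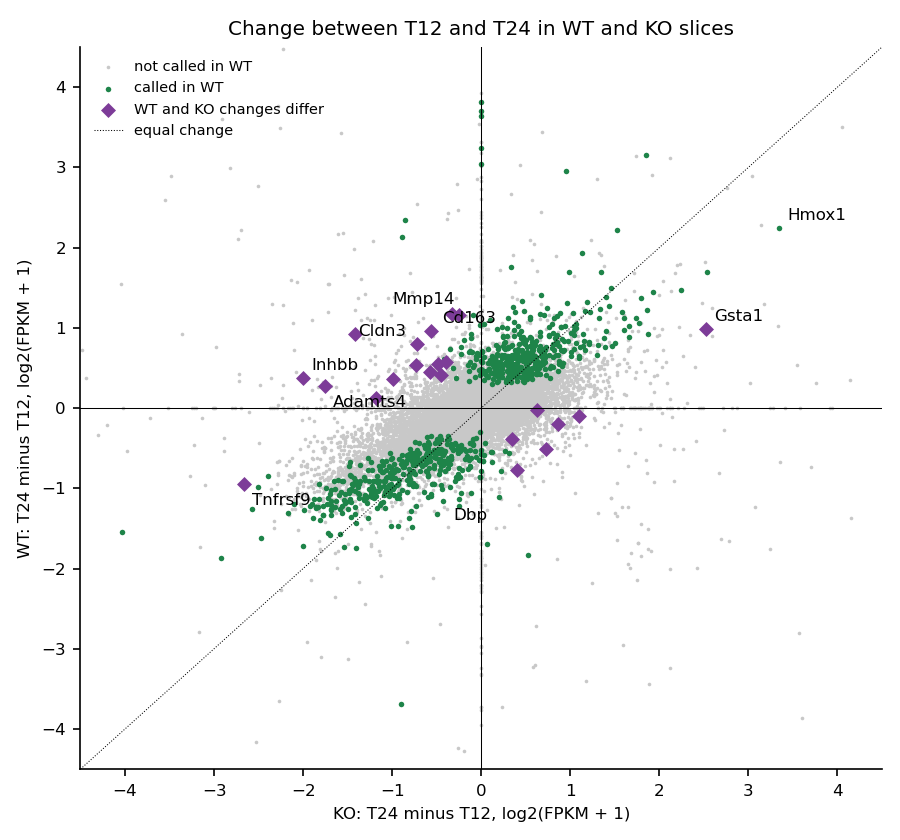
Change between T12 and T24 in WT slices (vertical axis) against the change in KO slices (horizontal axis), both T24 minus T12 on the log2(FPKM + 1) scale, 1 point per gene. Green points were called in WT slices and purple diamonds mark the 22 genes whose WT and KO changes differed; the dotted line is equal change, and 28 genes lie outside the axes.

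The change differed between the genotypes for 22 genes (0.175%), 15 with a higher (0.12%) and 7 with a lower WT change (0.0558%), and 1687 had an unadjusted p below 0.05. Of the 22, 20 had changes of opposite sign in WT and KO slices, and 9 of these were called in both. Inhbb, a subunit of activin B, had 25.6, 17.2 and 27.9 FPKM at T24 and 18.2, 12.4 and 24 FPKM at T12 in WT slices, and 12.7, 4.95 and 2.5 FPKM at T24 and 24.4, 25.4 and 26.3 FPKM at T12 in KO slices (difference 2.38 ± 0.45, adjusted p = 0.0395). The T24 and T12 values overlapped in WT and lay apart in KO slices. Adamts4, a proteoglycan-cleaving protease, had 9.37, 10.8 and 11.5 FPKM at T24 and 7.5, 9.4 and 8.89 FPKM at T12 in WT slices, and 4.83, 1.78 and 1.95 FPKM at T24 and 10.9, 7.41 and 17.4 FPKM at T12 in KO slices (difference 2.02 ± 0.36, adjusted p = 0.0304). Tnfrsf9, the costimulatory receptor 4-1BB, was lower at T24 in both genotypes, with a change of -0.95 ± 0.20 in WT and -2.66 ± 0.20 in KO slices (difference 1.71 ± 0.29, adjusted p = 0.0229). Cldn3, a tight junction protein of bile canaliculi, rose by 0.80 ± 0.21 in WT slices while its change in KO slices was -0.73 ± 0.21 (difference 1.52 ± 0.30, adjusted p = 0.0462), and Cd163 changed by 0.96 ± 0.20 in WT and -0.56 ± 0.20 in KO slices (difference 1.52 ± 0.28, adjusted p = 0.0395). Mmp14 had a change of 1.16 ± 0.19 in WT and -0.25 ± 0.19 in KO slices (difference 1.41 ± 0.27, adjusted p = 0.0442). Its difference was not called without WT T24 replicate 1, a fit in which no gene was called with a higher WT change.

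Gsta1, a glutathione transferase whose near-identical paralog Gsta2 can share its reads, had 8.81, 9.52 and 12.7 FPKM at T24 and 5.23, 4.1 and 4.73 FPKM at T12 in WT slices, and 5.002, 6.49 and 4.95 FPKM at T24 and 0, 0.213 and 0.16 FPKM at T12 in KO slices. It was listed at 0 in KO T12 replicate 1, and it rose by 0.99 ± 0.19 in WT and 2.52 ± 0.19 in KO slices on the log2(FPKM + 1) scale (difference -1.54 ± 0.27, adjusted p = 0.0304). The count of 22 rested on single libraries: it was 11 without WT T12 replicate 1, 5 without WT T12 replicate 2, 34 without WT T12 replicate 3, 1 without WT T24 replicate 1, 7, 917 and 11 without KO T12 replicate 1, 2 and 3, and 220, 4 and 7 without KO T24 replicate 1, 2 and 3. None of 6 differences (Inhbb, Adamts4, Tnfrsf9, Cldn3, Cd163 and Gsta1) was called without WT T12 replicate 2, WT T24 replicate 1, KO T24 replicate 2 or KO T24 replicate 3, and each kept its sign. With pseudocount 0.1 the difference was still called for Tnfrsf9 and Gsta1 and not for the other 4, and that of Gsta1 was -3.67 (adjusted p = 0.0477). Mitochondrial transcripts stood apart in the library behind the widest swing, with 18620, 108510 and 14381 FPKM of mt-Rnr1 in KO T12 replicates 1, 2 and 3, and their part in the result was not tested.

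**Figure D5:**
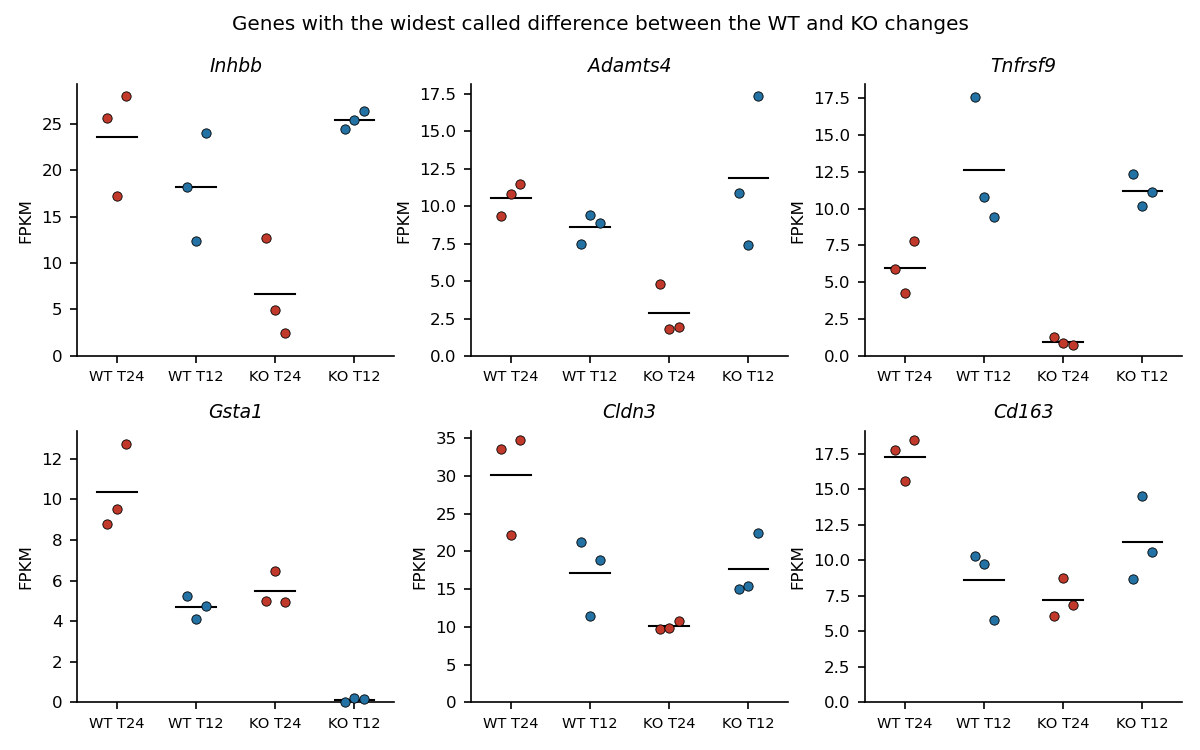
FPKM in each library (points) and the group mean (line) for the 6 named genes whose change differed most between the genotypes, in WT slices at T24 and T12 and in KO slices at T24 and T12. Inhbb and Adamts4 overlap between T24 and T12 in WT slices and lie lower at T24 in KO slices, while Cd163 and Cldn3 are higher at T24 in WT and lower at T24 in KO slices.

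Set beside the first harvest, the genes of the comparison took separate courses, given here as values because these comparisons share the T24 or the T12 libraries. In WT slices 7685 genes (61.2%; 29.8% higher and 31.5% lower) were called between T24 and T00. Between T12 and T00 there were 6332 (50.5%; 24.7% higher and 25.7% lower). Hmox1 had 8.52, 7.96 and 9.59 FPKM at T00 and 144, 189.9 and 198 FPKM at T06, far under its T24 level, and Slc48a1 had 12.2, 12 and 13.2 FPKM at T00 and 12.4, 10.9 and 13.3 FPKM at T06, so that its levels at T00 and T06 lay under those at T12. Gclm had 182, 208 and 200.2 FPKM at T00, above T12 and overlapping T24 (T24 minus T00 -0.13 ± 0.19, adjusted p = 0.564). For urea cycle and amino acid breakdown the median change of the list was -1.19 between T00 and T12 and -2.29 between T00 and T24, and for oxidative phosphorylation -0.51 and -0.98. For glycolysis and hypoxia genes these medians were 1.38 and 0.92, so that the list stayed above T00 at T24 while lying under T12.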

How the data were processed

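Poly(A)-selected RNA of WT and Bmal1-/- liver slices was sequenced as single reads from a stranded kit, per the labels. No read length was taken from the labels of this course. The deposited FPKM values were made by the authors with TopHat2 2.1.0 and Cuffdiff on GRCm38, per the submitters' processing notes. The annotation release, strand setting and scaling between libraries were not stated in those notes, and read depth is unknown. From these values log2(FPKM + 1) was computed, which understates the change of low genes. Genes whose mean over the 24 libraries reached 1 FPKM were fitted as 8 groups with limma 3.58.1 (moderated test with a variance trend, R 4.3.3), two-sided, Benjamini-Hochberg over 12547 genes, called at an adjusted p below 0.05. The script was tested on simulated data. Symbols were matched for 47217 of 47631 IDs, coordinates are from GENCODE M21, and promoters from RefSeq.

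By rule, the named genes came from the 12 highest and 12 lowest changes among called genes whose higher group averaged 5 FPKM or more, no overlap and a symbol other than Gm or Rik, up to 4 members of each of 46 lists by smallest p, the clock genes, and 6 of the genes whose WT and KO changes differed; the other list members named were added after their values were seen, and genes outside the lists and the rule are marked so in the text. The members and lists were chosen with earlier results of these data known. Alternatives covered the pseudocount, the filter, the scaling, the libraries fitted, the replicate block and leaving out each library.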

Additional observations from a re-analysis of the deposited data

Results flagged for a closer look

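The change between T12 and T24 differed between WT and KO slices, by the test of that difference, for 22 genes. Among those named, WT minus KO was 2.38 on the log2 scale for Inhbb, 2.02 for Adamts4, 1.71 for Tnfrsf9, 1.52 for Cldn3, 1.52 for Cd163 and -1.54 for Gsta1. None of these 6 was called without WT T12 replicate 2, WT T24 replicate 1, KO T24 replicate 2 or KO T24 replicate 3. Without KO T24 replicate 2, the library that correlated least with the others, 4 differences were called in all, and the adjusted p (limma) was 0.12 for Inhbb, 0.0856 for Adamts4 and Gsta1, 0.0509 for Tnfrsf9 and Cd163, and 0.129 for Cldn3. With pseudocount 0.1 Inhbb, Adamts4, Cldn3 and Cd163 were not called, and with no filter on low values Inhbb and Cldn3 were not.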

How the results depend on the processing

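The 846 genes called in WT slices became 187 with a limit of 1 on the log2 change (66 higher, 121 lower), 455 with no filter on low values (276 and 179), 1508 in a fit of the 12 WT libraries (942 lower) and 0 in a fit of the 6 libraries, where limma gave 3032 at an unadjusted p below 0.05. The cause of the rise in the 12-library fit was not tested. That fit called 20 complement and coagulation genes lower, against 1 in the main fit. It called 17 urea cycle and amino acid genes lower against 9, and 11 methionine and one-carbon genes against 3. Bile acid genes gave 9 lower against 3, and hepatocyte transcription factors 6 against 3. Chemokines called higher and interferon-stimulated genes called lower each went from 1 to 0. Pseudocount 0.1 gave 777, and median-of-ratios scaling 872 with 492 higher and 380 lower. Leaving out 1 library gave 217 to 677 genes in total, 133 to 354 higher and 84 to 323 lower. In KO slices the 4020 calls became 1221 with the limit on size and 2238 to 5323 without 1 library. The 22 differences became 12 with pseudocount 0.1, 39 with no filter and 1 to 917 without 1 library. With the limit on size, 3880 genes remained called between T24 and T00 and 2416 between T12 and T00.

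Same-numbered WT libraries deviated together at r = 0.082, 0.0427 and 0.0678, while WT libraries of unlike number gave -0.0499 to -0.0161. KO libraries of the same number gave 0.205, 0.216 and -0.0436, and those of unlike number -0.2616 to 0.1275. Deviations were taken from the mean of each group of 3 libraries. A positive value for 1 pair therefore forces negative values among the other pairs of that library, so same and unlike numbers are not separate observations. The labels repeat the numbers 1 to 3 at each time without saying what they mark. The main fit did not pair the samples by number, and whether the numbers pair them is not settled here. Against 846 WT calls (404 lower) and 22 differences in the main fit, a replicate block gave 1217 (675 lower) and 53. Under it Lyz2 (limma adjusted p = 0.0504), Timd4 (0.0522), Apob (0.0519) and Col4a2 (0.0548) were not called, which left no macrophage gene called lower and no apolipoprotein gene called, and Txnrd1 was called (0.0392). Among the named genes only uncalled ones changed sign. Gclc ran from -0.061 to 0.153 on the log2 scale, at -0.043 without T12 replicate 3 and -0.046 without T24 replicate 3. Slc2a1 ran from -0.741 to 0.039, above 0 without T12 replicate 1, and Nr1d1 from -0.051 to 0.196, below 0 without T12 replicate 3. Depth is unknown, so counting error cannot be given.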

Other observations

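Several gene groups gave 1 or 2 calls in WT slices, where 3.52% of all genes were called higher and 3.22% lower. In KO slices these shares were 13.0% and 19.0%, and without KO T24 replicate 2 17.8% of all genes were called. In the NF-kB list 2 of 17 were lower, Bcl3, a nuclear cofactor of NF-kB, at -1.28 ± 0.28 (adjusted p = 0.0156 by limma) and Ikbke, an antiviral kinase, at -0.90 ± 0.25 (adjusted p = 0.0389). Among interferon-stimulated genes 1 of 18 was lower in WT slices, Ifit1 at -1.05 ± 0.29 (adjusted p = 0.0385), and 13 of 18 were lower in KO slices (10 without KO T24 replicate 2). Of 27 tested conjugating enzymes 24 had a change below 0 (median -0.74), with 12 lower and 1 higher at an unadjusted p below 0.05. The called members were Nat8, an N-acetyltransferase of the mercapturate route, lower at -1.06 ± 0.23 (adjusted p = 0.0156), and Gsta1, which was higher. Among complement and coagulation genes 30 of 31 had a change below 0 and 1 was called, the mannose-binding lectin Mbl1 at -0.96 ± 0.24 (adjusted p = 0.0237). In the fit of the 12 WT libraries 20 genes of this list were called lower. Xbp1, a factor of the unfolded protein response, and Krt8, an epithelial keratin, changed by -0.61 ± 0.15 (adjusted p = 0.0215) and -1.08 ± 0.27 (adjusted p = 0.0278).

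Srebf2, the factor behind cholesterol synthesis, was higher at 0.54 ± 0.14 (adjusted p = 0.032), with 19 of 22 members of its list below 0. Single calls of higher genes were Hspa4l, a chaperone (0.51 ± 0.14, adjusted p = 0.039), Pcna, the replication clamp (0.40 ± 0.12, adjusted p = 0.0476), Col4a2, a basement membrane collagen (0.57 ± 0.16, adjusted p = 0.0438), Tuba1a, a tubulin (0.70 ± 0.20, adjusted p = 0.0452), and Amotl1, a partner of YAP (0.72 ± 0.19, adjusted p = 0.0324). In ribosome biogenesis 1 of 26 was higher in WT slices, Nop56 (0.66 ± 0.19, adjusted p = 0.0459), and 21 of 26 in KO slices (12 without KO T24 replicate 2), with medians of 0.11 and 0.74, and no member passed the test of the difference. No member of 24 cytosolic ribosomal proteins was called by limma or had an unadjusted p below 0.05, and none of 25 proteasome genes was called, with 4 at an unadjusted p below 0.05. None of 22 acute phase genes was called, with 19 below 0 and 7 at an unadjusted p below 0.05, all 7 lower.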
